A study of Mus musculus with 15 samples.

Results

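In bone marrow derived macrophages of control mice, 669 genomic regions, 2.33% of 28703, were among the strongest DNase hotspots of every control library without lipopolysaccharide (LPS) and of no control library after 8 h with it. A hotspot is a stretch of genome where DNase I cut more often than around it, and its strength is given here by the highest tag density that the authors' list reports for it. The lists at 0 and 8 h were reduced to chromosomes 1 to 19 and to the 17237 hotspots of highest density each, and hotspots that shared at least 1 bp were merged into regions. Members were present in all 3 control lists at 0 h and absent from all 3 at 8 h. The regions were thus chosen by their highest tag density in the control 0 and 8 h lists, and those values are described below without a test. The mirror set, which was in no control 0 h list and in all 3 at 8 h, held 1428 regions (4.98%). A further 9321 regions were in all 6 of these control lists and are called always-listed.

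The series measured DNase hypersensitivity in 15 libraries from C57BL/6J macrophages that were wild type (WT), littermate control or Ikzf KO. Cells had received 10 ng/ml LPS for 0, 3 or 8 h. At each time point 2 libraries were WT, 1 was littermate and 2 were KO, and the WT and littermate libraries are together called controls. Titles give 80 U of DNase for WT replicate 1, the littermate and KO, and 100 U for WT replicate 2. The labels do not say how the KO allele was made, what the littermates carry or whether replicates were separate animals, so the p-values below reflect variation among these libraries alone, and part of it may be technical.

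DNase I cuts DNA that is not wrapped in nucleosomes, so hotspots mark promoters, enhancers and other sites where proteins hold chromatin open. LPS, a cell wall component of Gram-negative bacteria, acts on macrophages through the receptor TLR4, which leads to NF-kB activation and to opening of inflammatory enhancers; accessibility can also be lost at sites whose factors are displaced. Ikaros, the protein named in the series title, is a zinc finger DNA-binding protein that recruits chromatin remodelling and repressor complexes. The lists carry mm9 coordinates without gene names, and neither nearby genes nor the DNA sequence of the regions was analysed here. Positions are given as the lists print them.

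The regions were weaker relative to other hotspots after 8 h, and most were still listed as hotspots. On chromosomes 1 to 19, WT replicate 1, WT replicate 2 and the littermate had 46530, 50212 and 110569 deposited hotspots at 8 h. Their 0 h lists had 16572, 20628 and 61651, so continued listing does not tell whether the regions closed. In the full deposited lists 616, 610 and 665 of the 669 were still present at 8 h in WT replicate 1, WT replicate 2 and the littermate. All 3 of these lists held 591 regions (88.3%, Wilson 95% interval 85.7 to 90.6), 44 regions were in 2, 30 in 1 and 4 in none. The share in all 3 was near that over all 28703 regions (88.6%) and below that over the other 10176 regions of all 3 control 0 h lists (99.96%). Among those listed, their median density was higher at 8 h than at 0 h, at 10.03, 10.4 and 10.3 against 7.16, 8.47 and 7.15. Over the same step the always-listed regions went from medians of 11.1, 12.5 and 10.2 to 39.5, 33.3 and 33.6. The medians of the members thus lay between 7.15 and 10.4 in these 6 lists, and those of the always-listed between 10.2 and 39.5. The regions are called here the regions that left, meaning that they left the strongest hotspots.

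Ranks and relative densities show how far they moved. The median rank of the regions was 11071, 11270 and 10332 in the control 0 h lists, where rank 1 is the densest hotspot. It was 25134.5, 26124.5 and 26059 among those listed at 8 h. Density was also divided by the median over those always-listed regions that the same deposited list held. Regions not listed were then set at 0. On that scale the regions had medians of 0.643, 0.676 and 0.704 at 0 h and of 0.246, 0.302 and 0.307 at 8 h. Control libraries at 0 and 3 h were weak in these units (always-listed medians 10.2 to 13.9), and those at 8 h and all KO libraries were strong (29.9 to 39.5). Library strength therefore cannot be told apart from time in the controls between 0 and 8 h.

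**Figure D1:**
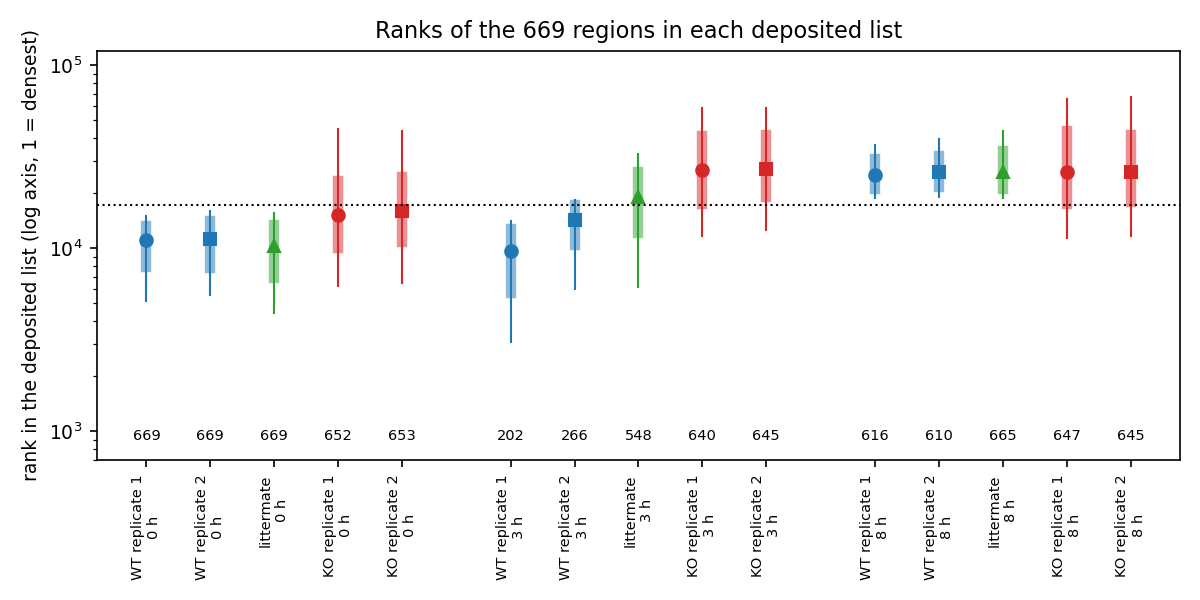
Rank of the 669 regions in each deposited list (log axis, 1 is the densest hotspot), with the median as a symbol, the 25th to 75th percentile as a thick bar and the 10th to 90th as a thin line, over the regions listed. The number listed stands at the bottom and the dotted line marks rank 17237; all control 0 h ranks lie under it and all control 8 h ranks above it by the rule, and the KO medians move from 15122.5 and 16054 at 0 h to 26084 and 26139 at 8 h.

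The 3 h lists did not choose the regions, and in them many had already left. The reduced lists held 202 of the 669 in WT replicate 1 (30.2%), 201 in WT replicate 2 (30.04%) and 243 in the littermate (36.3%). They held 46.6%, 51.7% and 51.4% of all 28703 regions. No control 3 h list held 315 regions (47.1%, interval 43.3 to 50.9), compared with 36.2% of all 28703 regions. The share was 5.62% of all 10845 regions that were in all 3 control 0 h lists. All 3 control 3 h lists held 104 regions (15.5%, interval 13.0 to 18.5), against 36.7% of all regions and 76.4% of those 10845. Another 166 regions were in 1 list and 84 in 2. Over all 28703 regions 609 regions (2.12%) were in all 3 control 0 h lists and in no control 3 h list. The 10176 regions of all 3 control 0 h lists that were not members had better ranks at 0 h. Their median ranks were 5448, 5417.5 and 5514.5, against 11071, 11270 and 10332 for the members. What this difference in rank adds to the 3 h shares was not tested. The libraries at 0 and 3 h were of like strength, with always-listed medians of 11.1 and 12.0 in WT replicate 1, 12.5 and 13.9 in WT replicate 2 and 10.2 and 10.4 in the littermate. These medians are over the regions listed, and the deposited 3 h lists of WT replicates 1 and 2 held 92.4% and 96.1% of the always-listed regions.

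As deposited, the 3 h lists differed in how far down they reach. The WT replicate 1 list at 3 h has 15042 hotspots on these chromosomes and was used whole, as was its 0 h list with 16572. The littermate 3 h list has 50187 and held 548 of the 669 regions (81.9%), at a median rank of 18939 and a median density of 5.42, below the 7.15 of its 0 h list. That median was lower at 3 h than at 0 h in a library whose always-listed median was 10.4 against 10.2. The relative density was 0.478 in the littermate at 3 h, between 0.704 at 0 h and 0.307 at 8 h. In the WT 3 h lists most of the regions were not listed, and their medians were 0.

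**Figure D2:**
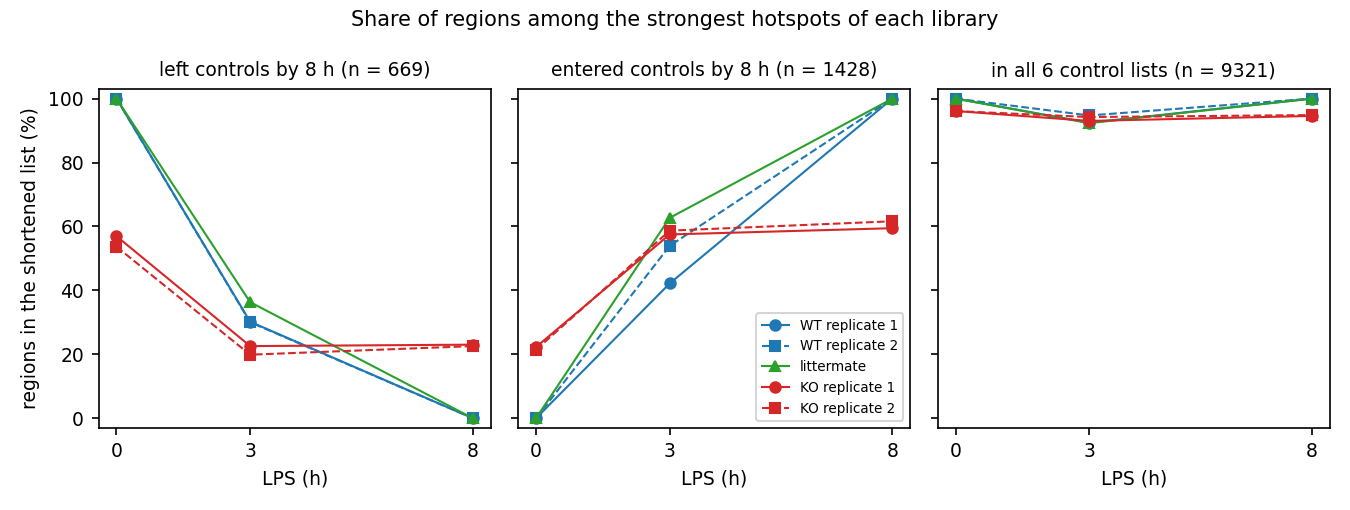
Share of regions held by each reduced list (percent) against hours of LPS, for the 669 regions that left, the 1428 that entered and the 9321 always-listed regions; each point is 1 library. The control values at 0 and 8 h are set by the rule, and the KO libraries, which did not decide membership, go from 57.0% and 53.7% at 0 h to 23.0% and 22.6% at 8 h for the regions that left.

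The KO libraries held fewer of the regions after LPS than before it, a difference that did not pass the test. The reduced KO lists held 381 and 359 of the 669 at 0 h (57.0% and 53.7%), 151 and 133 at 3 h (22.6% and 19.9%) and 154 and 151 at 8 h (23.0% and 22.6%), for replicates 1 and 2. Means were 370 ± 15.6, 142 ± 12.7 and 152.5 ± 2.12 regions (SD, n = 2). Both 0 h values lay above all 4 later values, and the 3 and 8 h values lay close together. Of all 28703 regions, the share held per reduced KO list ranged only from 57.4% to 59.3% over the 3 times. The member shares were thus near that range before LPS, if slightly under it, and far under it afterwards. The slope over time was -24.2 regions per hour and did not pass the test (exact two-sided permutation test over 90 arrangements of the 6 KO libraries, p = 0.133, smallest p that these values allow 0.0222). Setting 0 h against all later KO lists, a contrast chosen after seeing the data, gave a difference of 222.75 regions with p = 0.0667 in the exact permutation test, the smallest that 15 arrangements allow.

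The KO libraries were of like strength at 0 and 3 h, between which their lists differed most in the number of regions held. Always-listed medians were 30.9 and 31.05 at 0 h, then 29.9 and 29.9 at 3 h, then 36.8 and 37.0 at 8 h. The relative density of the regions that left was 0.505 and 0.474 at 0 h, then 0.336 and 0.327 at 3 h, then 0.333 and 0.333 at 8 h. Its slope on hours gave p = 0.111 in the same exact permutation test, again after seeing the data. In the same KO libraries the regions that entered in controls went the other way, from 0.299 and 0.289 to 0.551 and 0.548 and then 0.553 and 0.564.

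**Figure D3:**
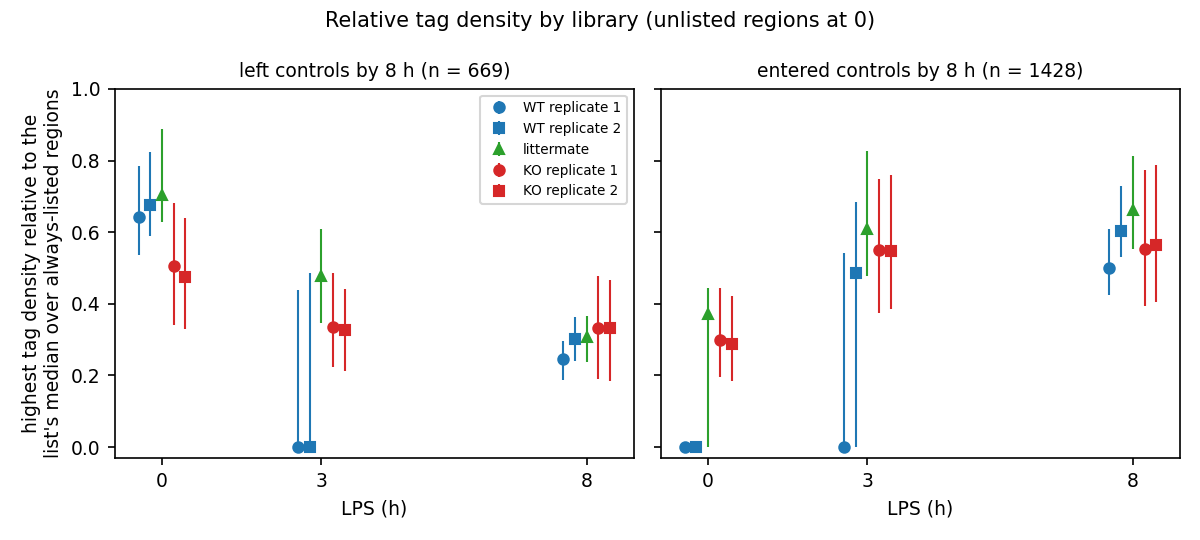
Highest tag density divided by the median over the always-listed regions of the same list, against hours of LPS, for the regions that left (n = 669) and those that entered (n = 1428); symbols are medians over regions, bars the 25th to 75th percentile, and libraries are set side by side for legibility. The KO medians of the regions that left are 0.505 and 0.474 at 0 h and 0.327 to 0.336 later, and medians of 0 are lists that hold under 50% of the regions.

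Counted region by region, 327 of the 669 (48.9%, interval 45.1 to 52.7) were in both KO 0 h lists. The share was 53.4% over all 28703 regions and 92.7% over the 10176 other regions in all 3 control 0 h lists. Of all 10845 regions in those control lists, 9.96% were not in both KO 0 h lists. A further 86 were in 1 KO 0 h list and 256 (38.3%) in neither, near the 35.5% over all 28703 regions and above the 3.51% over those other 10176. The full KO 0 h lists both held 233 of these 256 (91.0%), at lower rank, and 95.5% of all regions. Both KO 8 h lists held 133 regions (19.9%, interval 17.0 to 23.1) and neither held 497 (74.3%), against 54.4% and 36.0% of all regions. In full, all 6 deposited KO lists held 622 regions (93.0%) and none held 8 (1.20%), near the values over all regions (94.0% and 1.10%).

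In KO, 180 regions showed the same pattern as in controls, present in both lists at 0 h and absent from both at 8 h. That is 26.9% of the 669 (interval 23.7 to 30.4), against 6.51% of all regions. It is 9.64% of the 1868 regions with this pattern in KO. The opposite pattern, both KO 8 h lists and neither at 0 h, was found for 4 regions (0.598%), against 7.88% of all regions. Among regions in both KO 0 h lists, 55.0% of the members were in neither KO 8 h list, against 12.2% of all 15315 such regions and 1.87% of the 8822 that were always-listed. These sets differed in rank: the median KO 0 h ranks were 10085 and 10824 for those members and 5220.5 and 5209 for the always-listed regions. These shares depend on how presence is called: when 50% of a region had to be covered by hotspots, 189 regions met the rule, 10.1% of them were in both KO 0 h lists and 5.82% had the KO pattern. The cause of this drop was not tested.

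The KO change was as frequent by 3 h as by 8 h. Of the 327 regions in both KO 0 h lists, 180 (55.0%) were in neither KO 3 h list, against 11.0% of all regions in both KO 0 h lists, and 152 were in neither list at both later times. Over all 28703 regions, 5.88% were in both KO 0 h and in neither KO 3 h list. A set of 85 regions was in both lists at all 3 times, and 15 were in neither at 3 h and in both at 8 h.

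Members kept by the controls at 3 h were mostly in neither KO list at 0 h. Of the 315 regions in no control 3 h list, 254 (80.6%) were in neither KO 3 h list, against 74.4% of all 669 and 37.3% of all regions, both KO 0 h lists held 162, and 106 (33.7%) had the KO pattern of 0 h present and 8 h absent. Of the 104 in all 3 control 3 h lists, 81 (77.9%) were in neither KO 0 h list, 19 were in both and 7 (6.73%) had that pattern, against 35.5% of all regions in neither KO 0 h list and 6.51% with the pattern. The regions in 1 or 2 control 3 h lists were in both KO 0 h lists in 62.0% and 51.2% of cases, against 53.4% of all regions.

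**Figure D4:**
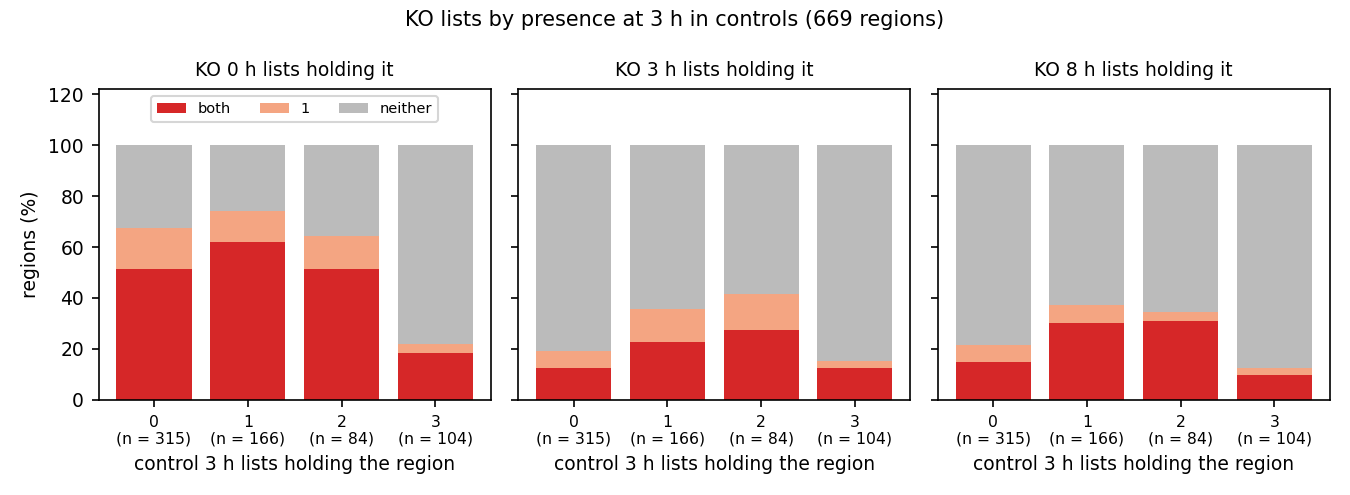
Share of the 669 regions (percent) in both, 1 or neither reduced KO list at 0, 3 and 8 h, by the number of control 3 h lists that hold the region, with the number of regions under each bar. Among the 104 regions in all 3 control 3 h lists 77.9% were in neither KO 0 h list, against 32.4% of the 315 in no control 3 h list.

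The pattern was graded across the edge of the rule. Regions in all 3 control 0 h lists were in 0, 1, 2 or 3 control 8 h lists in 669, 327, 528 and 9321 cases. From the first to the last of these classes, the share in both KO 0 h lists was 48.9%, 67.6%, 74.8% and 94.6%. The share of those that was in neither KO 8 h list was 55.0%, 27.6%, 17.5% and 1.87%, and the share in no control 3 h list was 47.1%, 27.8%, 17.8% and 1.17%. Values for neighbouring classes thus followed in order on all 3 measures. The classes were not matched for rank: median control 0 h ranks were 11071, 11270 and 10332 in the first and 5006, 5006 and 5145 in the last. What rank adds to this order was not tested.

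The region with the highest control 0 h rank among those with the KO pattern was chr5:64727385-64729327. Its highest tag density in controls at 0 h was 14.3 in WT replicate 1, 30.6 in WT replicate 2 and 18.1 in the littermate. After LPS it was in no WT list, and in the littermate it was listed at 5.87 at 3 h and 4.33 at 8 h. At 8 h it ranked 60251 in the littermate list, beyond the end of both WT lists (46530 and 50212 hotspots). In KO it was 48.1 and 49.3 at 0 h, then 8.68 and 8.33 at 3 h, then 10.3 and 9.01 at 8 h. The KO means went from 48.7 ± 0.876 to 8.50 ± 0.246 and 9.67 ± 0.927 (SD, n = 2), 5.73-fold lower at 3 h and 5.03-fold lower at 8 h. In both genotypes the 0 h values stood above all later listed values without overlap, while the always-listed medians in KO stayed between 29.9 and 37.0. The region was chosen for its KO pattern, so these values are a description with no test.

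A second region with a large difference in KO was chr2:166086448-166088181. Its control densities at 0 h were 9.95, 12.5 and 12.8 in WT replicate 1, WT replicate 2 and the littermate, and at 8 h 9.03, 8.33 and 10.3, and at 3 h only the littermate listed it (4.97). In KO it had 43.3 and 41.3 at 0 h, then 5.88 and 7.47 at 3 h, then 8.09 and 5.22 at 8 h, 6.34-fold lower at 3 h and 6.35-fold lower at 8 h by the means. The KO values at 0 h did not overlap with later ones. In deposited units the control values at 0 and 8 h did, although each control series was lower at 8 h. Relative to the always-listed median, the control means were 1.05 ± 0.188 at 0 h and 0.262 ± 0.0404 at 8 h (SD, n = 3).

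The region chr17:84472947-84474316 was in no deposited control list at 3 or 8 h, although 0 h densities were 6.77, 11.8 and 12.1 in WT replicate 1, WT replicate 2 and the littermate. In KO it was 29.3 and 28.2 at 0 h, then 7.28 and 4.88 at 3 h. At 8 h replicate 1 listed it at 4.74 and replicate 2 did not list it. Of the 4 regions absent from all deposited control 8 h lists, it was the single one in both KO 0 h lists. Of the others, chr8:19942985-19944065 had 9.95, 9.94 and 9.04 in controls at 0 h and 4.74 to 7.18 in the 6 KO lists, and chr10:32033177-32033697 had 7.56, 8.10 and 5.65 at 0 h and was in 3 deposited KO lists.

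The other regions of highest control rank with the KO pattern differed in their control values. The region chr12:114661632-114664468 had 14.3, 11.8 and 10.5 in controls at 0 h, then 8.27, 9.53 and 7.22 at 3 h, then 14.05, 9.03 and 9.99 at 8 h, and was in all 3 control 3 h lists. Its KO densities were 19.1 and 26.9 at 0 h, then 7.84 and 5.74 at 3 h, then 6.98 and 5.46 at 8 h. The KO values separate 0 h from later times, whereas the control values in deposited units overlap between 0 and 8 h, with each series lower at 8 h. Relative to the always-listed median, the control means were 1.09 ± 0.178 at 0 h and 0.308 ± 0.0436 at 8 h (SD, n = 3). The region chr19:41848057-41849540 had 8.76, 14.4 and 12.8 in controls at 0 h and 10.03, 10.1 and 13.7 at 8 h, which overlap in deposited units. Its relative control means were 1.06 ± 0.247 at 0 h and 0.321 ± 0.0776 at 8 h. It was in no control list at 3 h. In KO it had 16.2 and 16.01 at 0 h against 3.91 and 4.74 at 8 h. The region chr5:148173965-148175336 had 9.15, 15.8 and 12.4 in controls at 0 h, and at 8 h 10.4 in WT replicate 2 and 7.99 in the littermate, each below its 0 h value, with WT replicate 1 not listing it. In KO it had 29.6 and 28.5 at 0 h, then 16.8 and 11.5 at 3 h, then 17.3 and 15.2 at 8 h.

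A smaller number of regions was in all 4 KO lists at 0 and 8 h. These were 124 (18.5%), against 43.3% of all regions and 86.8% of the other regions in all 3 control 0 h lists. The one of best KO rank at 8 h was chr19:34336179-34338249, with control densities of 3.18, 8.84 and 6.78 at 0 h and 8.03, 12.8 and 13.3 at 8 h in WT replicate 1, WT replicate 2 and the littermate. Its KO densities were 66.8 and 59.5 at 0 h, then 59.6 and 69.8 at 3 h, then 112.5 and 125.5 at 8 h. Control density was higher at 8 h in all 3 series, and the region met the rule by its rank, which went from 16468, 10474 and 12113 at 0 h to 30813, 20306 and 19612 at 8 h. KO density was 10.1-fold that of controls at 0 h and 10.4-fold at 8 h. At 0 h always-listed regions were also denser in the KO than in the control lists (30.9 and 31.05 against 10.2 to 12.5), whereas at 8 h they were alike (36.8 and 37.0 against 33.3 to 39.5).

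The next 4 by KO rank at 8 h were denser in every KO list than in every control list. The region chr3:148881703-148884807 had 42.3 and 40.01 in KO at 0 h and 65.9 and 60.96 at 8 h, against 6.03 to 7.73 and 7.69 to 13.99 in controls. The region chr11:45874260-45877786 had 44.2 and 45.1 at 0 h and 58.04 and 54.3 at 8 h in KO, against 6.03 to 8.36 and 11.04 to 11.8 in controls. The region chr2:35304876-35308500 had 71.9 and 60.8 at 0 h and 52.5 and 51.7 at 8 h in KO, against 9.41 to 11.8 and 10.7 to 12.3. In chr3:144290529-144292478 the KO values were 31.5 and 36.8 at 0 h, then 50.8 and 49.6 at 8 h, against 5.57 to 8.47 and 11.3 to 14.05. These 5 were chosen for their KO 8 h rank, and the rule keeps all members below the cut of the control 8 h lists. The choice thus bears on both sides of the 8 h comparison, which is a description. The ratio of KO to control means at 8 h ran from 3.87 to 10.4.

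Among the 10 regions of best control 0 h rank, chr17:5769676-5771467 was in both KO lists at 0 and 8 h and in 1 at 3 h. It had KO densities of 43.6 and 47.1 at 0 h, then 14.3 and 15.5 at 3 h, then 30.4 and 31.8 at 8 h. The 3 h libraries were lowest and the 8 h libraries lay between, with no overlap between times. In controls it had 11.1, 18.8 and 18.5 at 0 h, was in no deposited list at 3 h, and had 9.03, 11.8 and 7.99 at 8 h. All 3 control series thus listed it at 0 and 8 h and not at 3 h.

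A separate group of 81 regions was in all 3 control 3 h lists and in neither KO 0 h list; it was chosen after its values were seen and gets no test. These regions had median densities of 12.3, 10.7 and 10.2 in controls at 0 h, 11.3, 10.3 and 9.93 at 3 h and 8.36, 7.98 and 7.66 among those listed at 8 h. In KO the medians of those listed were 5.09 and 5.12 at 0 h, then 4.76 and 5.03 at 3 h, then 4.60 and 4.51 at 8 h. Control values at 0 and 3 h lay close together and above all KO values. The group ranked high in the weak control libraries of 0 and 3 h. Its choice asked for presence in these control lists and absence from both KO 0 h lists, and so favours this order. Relative density was 1.11, 0.853 and 1.00 at control 0 h, 0.195 to 0.228 at control 8 h and 0.114 to 0.155 in KO. The group's part in the change with time, apart from the change in library strength, was not tested.

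**Figure D5:**
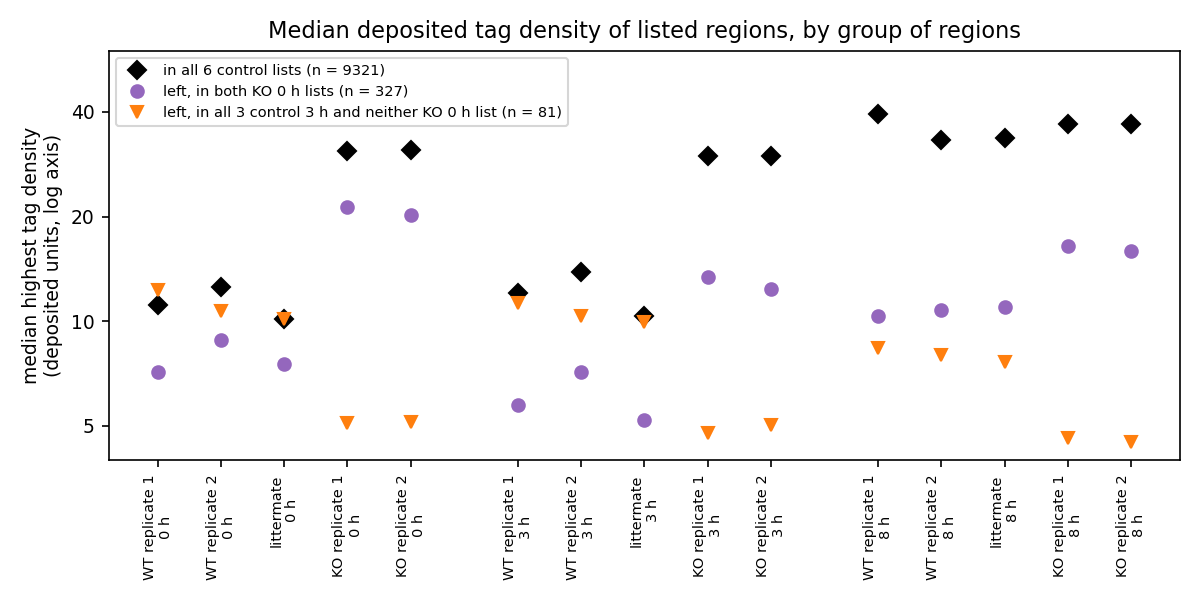
Median of the highest tag density in deposited units (log axis) over the regions listed in each library, for the always-listed regions (n = 9321), the members in both KO 0 h lists (n = 327) and the members in all 3 control 3 h lists and neither KO 0 h list (n = 81). The always-listed medians are 10.2 to 13.9 in the control 0 and 3 h libraries and 29.9 to 39.5 in the others, the 327 regions go from 21.3 and 20.2 to 13.4 and 12.3 between 0 and 3 h in KO, and the 81 regions stay between 7.66 and 12.3 in controls and between 4.51 and 5.12 in KO.

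That group held many of the highest ranks at control 0 h. With the 669 divided by mean control 0 h rank into 4 sets of 167 or 168, the group made up 35.1% of the strongest set and 8.38%, 2.40% and 2.40% of the following ones. The best ranked region, chr8:19923857-19924355, had densities of 27.1, 21.7 and 19.6 at control 0 h, and 27.1, 17.5 and 18.96 at 3 h. At 8 h it had 13.7 in WT replicate 1 and 8.99 in the littermate and was not listed in WT replicate 2. In KO it was 13.05 and 8.32 at 0 h, then 10.1 and 10.05 at 3 h, then 8.09 and 7.12 at 8 h. All control 0 and 3 h values were above all KO values, and the 8 h values overlapped with them.

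Others of this kind were not listed in KO. The region chr17:3009960-3010617 had 21.9, 16.9 and 11.3 at control 0 h and 22.05, 22.2 and 14.4 at 3 h, and was in no deposited control 8 h list and no deposited KO list. Nearby, chr17:3026811-3027401 had 25.1, 16.2 and 10.5 at control 0 h and 12.4, 5.55 and 3.997 at 8 h, and chr17:3029649-3030474 had 21.9, 12.5 and 11.7 at 0 h. Neither was in a deposited KO list. The same held for chr5:137632694-137633890, with 12.3, 15.1 and 11.3 at control 0 h and 13.04, 12.8 and 8.99 at 8 h, and for chr11:88829030-88831003, with 14.7, 9.94 and 11.3 at 0 h. Absence from a list says that no hotspot passed the authors' threshold, which is not given in the sources used here.

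More of the strongest regions had lower densities in KO, at every time, than in controls at 0 h. The region chr7:18969163-18969721 had 23.5, 12.9 and 21.1 at control 0 h, 13.04, 9.37 and 10.99 at 8 h and 4.02 to 7.28 in the 6 KO lists. The region chr1:24864412-24865102 had 21.9, 16.9 and 12.4 at control 0 h, 11.04, 11.5 and 7.33 at 8 h and 3.64 to 6.68 in KO. The region chr5:33079989-33081058 had 22.3, 16.9 and 18.1 at control 0 h, 11.7, 13.5 and 11.7 at 8 h, and 10.3 to 13.8 in KO. Its KO values thus overlapped with its control 8 h values. In each of these regions the control 0 h values lay above the control 8 h values except that the lowest 0 h value of the first was below its highest 8 h value. On chromosome 17, within 100 kb of the first of the regions not listed in KO, chr17:3079065-3079785, with 17.9, 19.1 and 16.2 at control 0 h, 11.4, 13.2 and 9.66 at 8 h and 9.76 to 14.3 in KO, was in 1 KO 0 h list and so outside the group.

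The regions were shorter than those that entered or stayed. The median length was 1248 bp over the 669, 1540 bp over all regions, 2214 bp over the always-listed and 1561.5 bp over those that entered. Union length follows from which lists hold a region, and members in both KO 0 h lists had 1641 bp and the group of 81 had 711 bp. Within single libraries the width of the strongest hotspot was 592 bp for the 81 and 484 bp for the other members in WT replicate 1 at 0 h, 525 and 590.5 bp in WT replicate 2, and 657 and 826.5 bp in the littermate. In KO at 0 h it was 538.5 and 547 bp for the 81 and 1314.5 and 1295 bp for the others. Over all members in neither KO 0 h list, which include the 81, it was 999 and 1000 bp. The group, chosen for absence from the KO 0 h lists, was narrower in KO, while in controls the order depended on the library.

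Of the regions next to a member on the chromosome, 6.00% were members too, against 2.32% of neighbours over all regions, and 2.63% had entered, against 4.98%. Neighbours of regions that entered were members in 1.23% and had entered in 10.2%. Of the group of 81, 39 (48.1%) lay within 100 kb of another of the group, against 115 of the other 588 (19.6%) within 100 kb of another of those. Within 200 kb of the first hotspot on their chromosome were 8 of the 81 (9.88%), 0.680% of the other members and 0.307% of all regions. By chromosome, members were between 1.48% (chromosome 15) and 3.19% (chromosome 7) of regions.

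The edge of the rule was close for many regions, and which regions met it depended on the number of hotspots kept: with 12000 a list, 204 of the 669 (30.5%) did so, and with 8618, 89 (13.3%). Without WT replicate 1, WT replicate 2 or the littermate, 1283, 1139 or 1206 regions met it. The best 8 h rank in any control list had a median of 22622; it was at most 20000 for 236 regions (35.3%), and beyond 30000 or unlisted for 129 (19.3%). Just inside were chr7:99589637-99591406, chr18:61258395-61259446 and chr5:115047449-115048343, with best ranks of 17247, 17255 and 17264. Just outside were chr13:114031680-114033151, chr2:3643401-3645557 and chr5:105352093-105353319, with 17213, 17209 and 17207. The first on each side had the same littermate density at 8 h, 14.99. Over the 4 sets by control 0 h rank, the share in no control 3 h list was 31.5%, 50.9%, 46.7% and 59.3% from strongest to weakest, and the share of those in both KO 0 h lists that were in neither at 8 h was 58.5%, 57.0%, 53.5% and 50.0%.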

How the data were processed

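DNase-seq hotspot lists of 15 libraries were used, grouped by genotype and hours of LPS as labelled. The submitters' processing notes name mm9 and CASAVA. How reads were aligned and hotspots called, and at what threshold, is not given in the sources used here. Deposited values, per the file headers, are the highest and mean tag densities of a hotspot (a signal), its Z-score (a score) and a p-value; the authors made 1 list per library. Depth is unknown. Deposited densities rise in steps of 0.237 to 0.451, and if the libraries were scaled to 1 total, which no source states, depth relative to the deepest was 0.525 to 1 (KO 0.741 to 1).

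The 10 lists at 0 and 8 h were cut to 17237 hotspots, the length of the shortest over all chromosomes; ties went by mean density, then position. The WT replicate 1 lists at 0 and 3 h are shorter on chromosomes 1 to 19 and were used whole. A region was present where at least 1 bp was covered. Shares have Wilson 95% intervals, which treat regions as independent. The KO count per list was tested by exact permutation of times. Python 3.11.15, numpy 2.4.6, pandas 2.3.3 and scipy 1.17.1 were used. Regions named are the best ranked of 6 classes (10 by control 0 h rank, 5 in each other) and 3 on each side of the edge. The members and lists were chosen with earlier results of these data known. Alternatives are in the closing section. Genes, sequences and chromosomes X and Y were left out of the main comparison.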

Additional observations from a re-analysis of the deposited data

How the results depend on the processing

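The number of regions was 669. It was within 1.5 times of that under 7 alternatives, at 501 to 773, of which merging control lists alone gave 691. It was 357 with lists of 8618 hotspots, 16 with lists as deposited (too few for shares), 189 with 50% of a region covered and 1321 with bins of 500 bp, and, by construction higher with fewer lists to satisfy, 1283 without WT replicate 1, 1139 without WT replicate 2 and 1206 without the littermate. The regions themselves changed more: lists of 8618 and 12000 hotspots found 89 (13.3%) and 204 (30.5%) of the 669, ranking by Z-score 435 (65.0%) and by mean density 544 (81.3%).

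The KO slope over time was negative and did not pass the test in any alternative that kept the measure, with p from 0.0778 to 0.667 in the exact permutation test (with 1 KO series, 3 lists give no p under 0.05). With the replicate block it was -24.2 regions per hour with p = 0.222 (exact permutation within replicates, smallest that these values allow 0.0278). Replicate numbers did not pair the KO libraries (r of replicate differences between times -0.0168, -0.0502 and 0.175), while in WT they coincide with DNase amount (0.508, 0.555 and 0.580).

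The share in both KO 0 h lists (48.9%) was 53.1% ranked by mean density, 10.1% with 50% covered, 43.2% with X and Y, 55.6% without the group of 81 (left out after seeing the data) and 42.7% to 57.0% with 1 series left out. The share in both KO 8 h lists (19.9%) was 16.9% by Z-score and 2.65% with 50% covered, and 20.02% to 23.0% with 1 series left out. The share in both KO 0 h and neither KO 8 h list (26.9%) was 20.7% with lists of 8618, 5.82% with 50% covered, 23.0% with X and Y, 30.6% without the group of 81 and 20.5% to 35.4% with 1 series left out. The share in all 3 control 3 h lists (15.5%) was 21.0% with lists of 8618, 36.5% with 50% covered, 22.6% with X and Y and 12.7% with 3 h lists cut to 15042. The share in no control 3 h list (47.1%) was 52.4%, 39.2%, 42.4% and 53.5% in the same order, and 56.8% to 59.5% with 1 series left out. The share in all 3 deposited control 8 h lists (88.3%) was 93.6% with lists of 8618, 93.4% with lists of 12000, 80.95% with 50% covered, 85.1% with bins and 89.8% to 91.8% with 1 series left out. With 1 KO series left out, the KO shares are those of 1 list and by construction at least as high as in the main setting. With 1 control series left out, the control shares ask for fewer lists to agree, which favours higher shares. The causes of the other changes were not tested. Depth limits what absence from a list means, since no floor can be given without counts.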
